A study of Mus musculus with 9 samples.

Results

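The genes described here encode fibrillar collagens and other structural proteins of the interstitial matrix, measured in endothelial cells (ECs) sorted from mouse lungs with and without metastases. They are 10 of the 18193 genes represented on the array, namely Col1a1, Col1a2, Col3a1, Col5a1, Col5a2, Col6a1, Fn1, Postn, Dcn and Lum. Every probe set whose annotation names 1 of these genes alone was used, which gave 19 of 34945 probe sets. The set is defined by gene names, without a threshold on any measured value. However, these genes and the related lists were chosen with earlier results of these data known. The shares of all probe sets or genes given beside their counts are therefore a description and no independent test.

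All mice were of the NSG strain, which lacks adaptive immunity and accepts human cells, and were 6 to 8 weeks old when the cancer cells were injected. The metastasis B20 group carried lung metastases of MDA-MB-231-LM2, a lung-seeking derivative of a human breast cancer line injected through the tail vein, and received B20.4.1.1, an antibody that blocks VEGFA, at 10 mg/kg 2 times a week. The metastasis IgG group carried the same metastases and received control IgG, and both groups were harvested on day 21. The healthy IgG group consisted of age-matched mice without cancer cells that also received control IgG. Each group held 3 arrays, named biological replicates by the labels, and the study selected metastatic mice for a comparable tumor load. ECs were sorted from whole lungs by CD31, after exclusion of cells with CD140a or CD140b, CD326, GFP, CD45 or CD11b, so ECs inside nodules and ECs of the surrounding lung were pooled. RNA of such a sort is a bulk measurement, in which a changed number of cells of a type and a changed amount of RNA per cell cannot be told apart.

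Fibrillar collagens form the tensile scaffold of connective tissue. Collagen I is assembled from the chains of Col1a1 and Col1a2, collagen III from the chain of Col3a1, and collagen V, whose chains come from Col5a1 and Col5a2 among others, seeds and thins the fibrils of collagen I. Fibronectin (Fn1) is laid down early and guides collagen deposition, and periostin (Postn) promotes cross-linking of the network. Collagen VI (Col6a1) forms beaded filaments around cells, and decorin (Dcn) and lumican (Lum) are small leucine-rich proteoglycans that bind collagen fibrils. In healthy lung, fibroblasts and perivascular mural cells are the best known producers of this matrix, whereas ECs are known mainly for the collagens and laminins of the basement membrane.

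The 9 arrays were alike in scale, with array medians of 8.31 log2 units throughout. The lowest correlation was 0.989 between arrays of a group and 0.976 between arrays of different groups. Pecam1, which encodes the CD31 used for sorting, lay between 13.32 and 13.47 in metastasis B20 ECs, between 13.34 and 13.40 in metastasis IgG ECs and between 13.36 and 13.42 in healthy ECs. The 3' over 5' log2 signal of Actb, which reports on RNA integrity, ran from 0.526 to 0.620 in metastasis B20 arrays, from 0.488 to 0.555 in metastasis IgG arrays and from 0.609 to 0.620 in healthy arrays. It therefore differed without overlap between metastasis IgG and healthy arrays. The same measure of Gapdh overlapped between all groups. It ran from 0.0601 to 0.1945 in metastasis B20 arrays, from -0.0338 to 0.0995 in metastasis IgG arrays and from 0.0969 to 0.1762 in healthy arrays. The part of RNA integrity in the differences given here was not tested.

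The first comparison asked how the expression of these matrix genes differed in lung ECs once metastases had grown. In metastasis IgG ECs, 5 of the 10 genes rose over healthy ECs, namely both chains of collagen I, collagen III, the collagen V chain Col5a2 and fibronectin. The rise ran from 0.86 to 2.44 log2 units across 9 probe sets, or 1.82-fold to 5.43-fold, and in none of these 9 did a metastasis IgG array overlap a healthy one. In total 10 of 19 probe sets passed the test (limma, Benjamini-Hochberg adjusted p under 0.05 over all 34945 probe sets), 9 higher and 1 lower, whereas 7.41% of all probe sets passed, 4.43% higher and 2.98% lower. In 12 of 19 probe sets no metastasis IgG array fell within the healthy range or the reverse, against 27.5% of all probe sets. The median difference of the 19 probe sets was 0.85, and that of all probe sets was -0.0065.

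**Figure D1:**
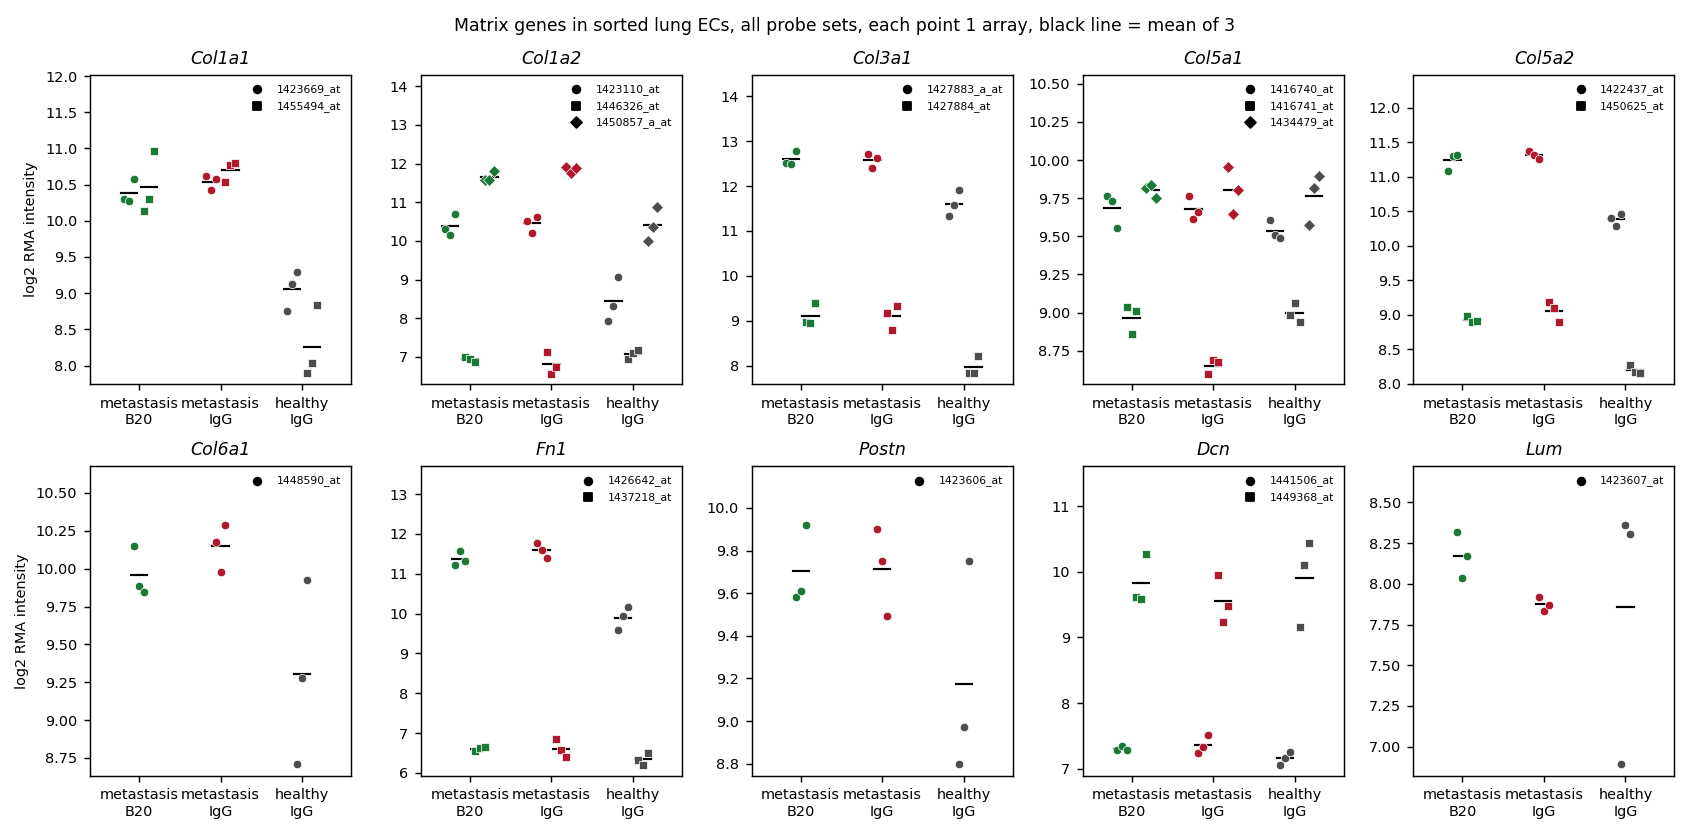
Log2 RMA intensity (y axis) of all 19 probe sets of the 10 matrix genes in metastasis B20, metastasis IgG and healthy IgG ECs (x axis), with 1 point per array, 1 marker shape per probe set and a black line at the mean of 3 arrays. Both probe sets of Col1a1, Col3a1 and Col5a2, 2 of 3 of Col1a2 and 1 of 2 of Fn1 lie higher in all 6 metastatic arrays than in all 3 healthy arrays, whereas the Dcn and Lum arrays overlap between metastasis IgG and healthy ECs.

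The collagen I chains had the largest differences among these collagens. Col1a1, which encodes the alpha 1 chain, had 10.31, 10.27 and 10.58 log2 units in metastasis B20 ECs, 10.61, 10.43 and 10.58 in metastasis IgG ECs and 8.76, 9.13 and 9.29 in healthy ECs on probe set 1423669_at. All 6 metastatic arrays lay above all 3 healthy arrays, and the metastasis B20 and IgG arrays overlapped. The difference of metastasis IgG over healthy ECs was 1.48 ± 0.14 (SE, n = 3 arrays per group, limma adjusted p = 0.000676). The second Col1a1 probe set, 1455494_at, had 10.14, 10.30 and 10.96 in metastasis B20 ECs, 10.54, 10.77 and 10.79 in metastasis IgG ECs and 7.89, 8.04 and 8.84 in healthy ECs, a difference of 2.44 ± 0.22 (limma adjusted p = 0.000658). Both Col1a1 probe sets thus rose, with differences that were 0.96 log2 units apart.

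Col1a2, which encodes the alpha 2 chain of collagen I, had 11.58, 11.59 and 11.80 log2 units in metastasis B20 ECs, 11.91, 11.76 and 11.88 in metastasis IgG ECs and 10.00, 10.35 and 10.89 in healthy ECs on probe set 1450857_a_at. The difference was 1.44 ± 0.20 (limma adjusted p = 0.00395). On probe set 1423110_at the Col1a2 signal was 10.32, 10.16 and 10.69 in metastasis B20 ECs, 10.52, 10.22 and 10.63 in metastasis IgG ECs and 7.94, 8.32 and 9.07 in healthy ECs, a difference of 2.01 ± 0.25 (limma adjusted p = 0.00278). In both Col1a2 probe sets healthy array 3 was the highest of its group and stayed below all metastatic arrays. The third Col1a2 probe set, 1446326_at, was dim, with a mean of 6.94 over 9 arrays against a median of 8.30 for all probe sets, and its difference of -0.26 did not pass (limma adjusted p = 0.346).

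Collagen III also rose. Col3a1, its only chain, had 12.51, 12.50 and 12.77 log2 units in metastasis B20 ECs, 12.72, 12.41 and 12.62 in metastasis IgG ECs and 11.33, 11.57 and 11.91 in healthy ECs on probe set 1427883_a_at, a difference of 0.98 ± 0.15 (limma adjusted p = 0.00737). The other Col3a1 probe set, 1427884_at, gave 8.97, 8.96 and 9.40 in metastasis B20 ECs, 9.18, 8.80 and 9.32 in metastasis IgG ECs and 7.84, 7.85 and 8.22 in healthy ECs, a difference of 1.13 ± 0.16 (limma adjusted p = 0.00437). The metastatic and healthy arrays did not overlap on either, and the Col3a1 differences were only 0.16 log2 units apart.

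Of the collagen V chains, Col5a2 rose and Col5a1 did not. Col5a2 passed on both of its probe sets, at 0.93 ± 0.09 on 1422437_at (limma adjusted p = 0.000676) and at 0.86 ± 0.10 on 1450625_at (limma adjusted p = 0.00181). On 1422437_at it had 11.09, 11.31 and 11.32 log2 units in metastasis B20 ECs, 11.37, 11.31 and 11.26 in metastasis IgG ECs and 10.40, 10.28 and 10.46 in healthy ECs. On 1450625_at the Col5a2 values were 8.99, 8.89 and 8.90 in metastasis B20 ECs, 9.18, 9.09 and 8.89 in metastasis IgG ECs and 8.27, 8.16 and 8.15 in healthy ECs. All metastatic arrays lay above all healthy arrays on both. Col3a1 and Col5a2 are neighbors on chromosome 1 of the mouse genome, with no other protein-coding gene between them in the RefSeq annotation.

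Col5a1 encodes the alpha 1 chain of collagen V. Its probe set 1434479_at had 9.81, 9.84 and 9.75 log2 units in metastasis B20 ECs, 9.96, 9.65 and 9.80 in metastasis IgG ECs and 9.57, 9.82 and 9.90 in healthy ECs, so that the groups overlapped (difference 0.04, 95% interval -0.23 to 0.31, limma adjusted p = 0.894). Col5a1 probe set 1416740_at gave a difference of 0.14 (95% interval -0.05 to 0.34, limma adjusted p = 0.39). The third, 1416741_at, had 9.04, 8.86 and 9.01 in metastasis B20 ECs, 8.60, 8.69 and 8.67 in metastasis IgG ECs and 8.99, 9.06 and 8.94 in healthy ECs, and was the 1 probe set called lower (-0.34 ± 0.08, limma adjusted p = 0.0412). This call of Col5a1 was lost whichever of the 6 arrays was left out, with adjusted p values of 0.0726 to 0.132, and the other 2 probe sets did not share its direction.

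Fibronectin rose as well. Fn1 had 11.21, 11.56 and 11.31 log2 units in metastasis B20 ECs, 11.78, 11.60 and 11.39 in metastasis IgG ECs and 9.58, 9.93 and 10.16 in healthy ECs on probe set 1426642_at, a difference of 1.70 ± 0.16 or 3.24-fold (limma adjusted p = 0.000676). No metastatic array overlapped a healthy one. The second Fn1 probe set, 1437218_at, was dim, with a mean of 6.52, and its difference of 0.27 did not pass (95% interval -0.03 to 0.57, limma adjusted p = 0.284).

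Collagen VI and periostin did not pass the test with all arrays. Col6a1, which encodes a chain of the beaded collagen VI, had 10.15, 9.89 and 9.85 log2 units in metastasis B20 ECs, 10.18, 9.98 and 10.29 in metastasis IgG ECs and 8.71, 9.28 and 9.92 in healthy ECs. The metastasis IgG arrays lay above the healthy ones, with healthy array 3 close below them (difference 0.85 ± 0.26, 95% interval 0.25 to 1.44, limma adjusted p = 0.0944). Postn had 9.58, 9.61 and 9.92 in metastasis B20 ECs, 9.90, 9.75 and 9.50 in metastasis IgG ECs and 8.80, 8.97 and 9.75 in healthy ECs, a difference of 0.54 ± 0.23 (95% interval 0.01 to 1.06, limma adjusted p = 0.216). Both genes passed without healthy array 3, when the difference was 1.15 for Col6a1 (limma adjusted p = 0.0133) and 0.83 for Postn (limma adjusted p = 0.0194), and Col6a1 also passed with all arrays at the looser adjusted p of the methods (under 0.25, with a log2 change over 0.75).

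The proteoglycans showed no difference that passed. Dcn had 9.61, 9.58 and 10.27 log2 units in metastasis B20 ECs, 9.95, 9.24 and 9.47 in metastasis IgG ECs and 9.16, 10.11 and 10.44 in healthy ECs on probe set 1449368_at. The Dcn arrays of all groups overlapped, and the difference of metastasis IgG over healthy ECs was -0.35 ± 0.31 (95% interval -1.06 to 0.35, limma adjusted p = 0.568). The dim Dcn probe set 1441506_at gave 0.20 (95% interval -0.03 to 0.43, limma adjusted p = 0.291). Lum, which neighbors Dcn on chromosome 10 and was dim with a mean of 7.97, had 8.32, 8.04 and 8.17 in metastasis B20 ECs, 7.92, 7.83 and 7.87 in metastasis IgG ECs and 6.89, 8.36 and 8.31 in healthy ECs, a difference of 0.02 ± 0.34 (95% interval -0.76 to 0.79, limma adjusted p = 0.983). The Lum value rested on healthy array 1, which lay far below the other healthy arrays, and without it the Lum difference was -0.46 (limma adjusted p = 0.0423). The same omission moved the Dcn difference to -0.72, which did not pass (limma adjusted p = 0.111).

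The healthy arrays differed among themselves in these genes. With 1 probe set per gene, healthy array 1 was the lowest of its group for 9 of 10 genes and healthy array 3 the highest for 9 of 10. The median SD of the 19 probe sets was 0.140 in metastasis B20 ECs, 0.153 in metastasis IgG ECs and 0.273 in healthy ECs. The SD of Col6a1 was 0.163 in metastasis B20 ECs, 0.156 in metastasis IgG ECs and 0.606 in healthy ECs, and that of Lum was 0.140 in metastasis B20 ECs, 0.0429 in metastasis IgG ECs and 0.832 in healthy ECs. The healthy SD was the largest of all groups in 11 of 19 probe sets. Col5a2 was among the exceptions, with SDs between 0.0539 and 0.148 over both probe sets and all groups.

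**Figure D2:**
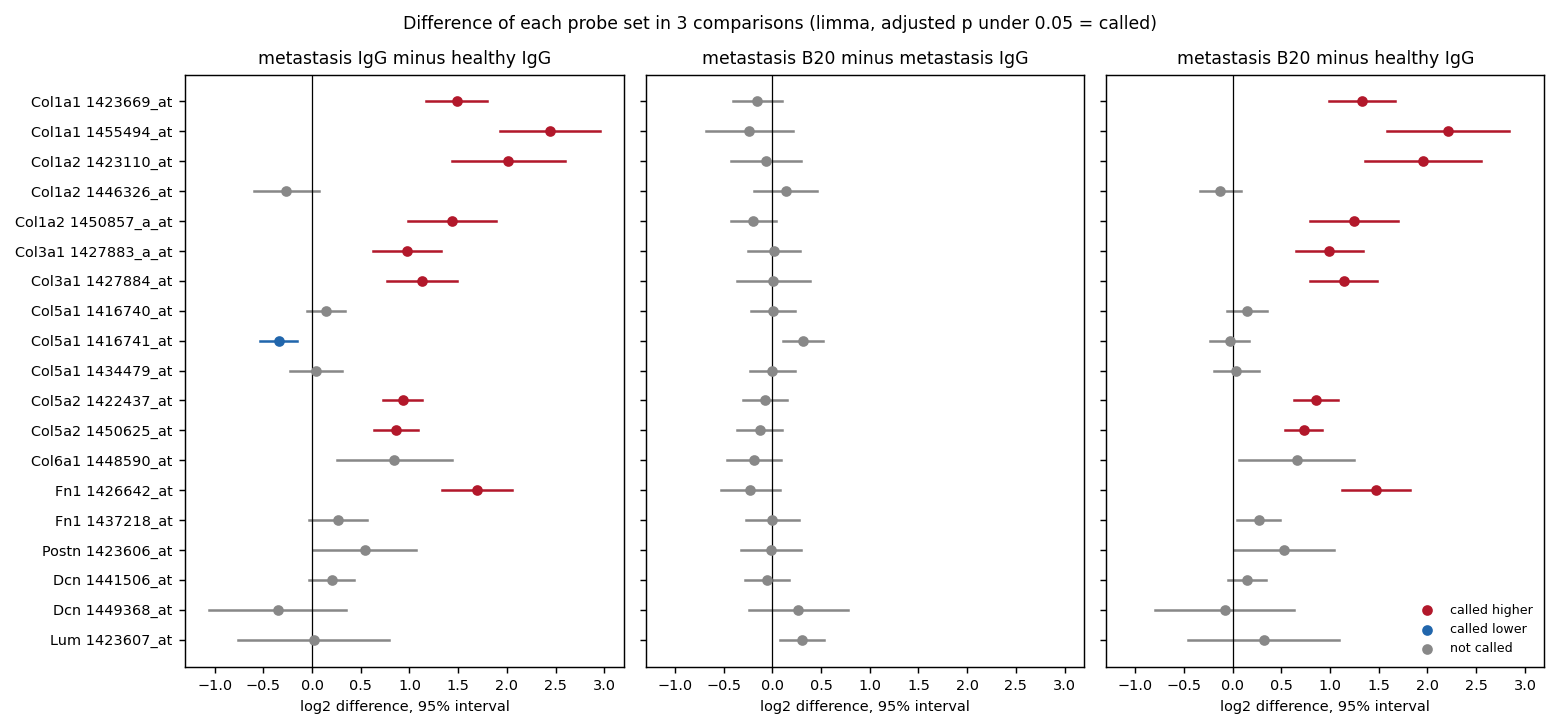
Log2 difference (x axis) of each of the 19 probe sets (y axis) in 3 comparisons, with its 95% interval from limma, colored by whether the adjusted p was under 0.05. Against healthy ECs, 9 probe sets of Col1a1, Col1a2, Col3a1, Col5a2 and Fn1 lie at 0.86 to 2.44 in metastasis IgG ECs and at 0.73 to 2.21 in metastasis B20 ECs, and all 19 lie between -0.24 and 0.31 in metastasis B20 over metastasis IgG ECs.

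The second comparison asked whether blocking VEGFA changed these genes in ECs of metastatic lungs. None of the 19 probe sets passed between metastasis B20 and metastasis IgG ECs, and limma called 0% of all 34945 probe sets in this comparison. At an unadjusted p under 0.05 there were 2 of 19, against 7.63% of all probe sets. These were Col5a1 on 1416741_at, at 0.31 ± 0.09 (limma adjusted p = 0.502), and Lum, at 0.30 ± 0.10 (limma adjusted p = 0.544). In both, and in none of the other 17, all metastasis B20 arrays lay above or below all metastasis IgG arrays, which held for 12.7% of all probe sets, and the other 2 Col5a1 probe sets stood at 0.01 and -0.0001.

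For the 9 probe sets that were high in metastatic lungs, the differences between metastasis B20 and metastasis IgG ECs had these intervals. Col1a1 differed by -0.16 on 1423669_at (95% interval -0.41 to 0.10) and by -0.24 on 1455494_at (95% interval -0.68 to 0.21). Col1a2 differed by -0.19 on 1450857_a_at (95% interval -0.42 to 0.03) and by -0.06 on 1423110_at (95% interval -0.42 to 0.30). All of these point estimates of collagen I were below 0, and all intervals held 0. Col3a1 differed by 0.01 on 1427883_a_at (95% interval -0.25 to 0.28) and by 0.01 on 1427884_at (95% interval -0.37 to 0.38). Col5a2 differed by -0.07 on 1422437_at (95% interval -0.30 to 0.15) and by -0.13 on 1450625_at (95% interval -0.36 to 0.10), and Fn1 by -0.23 on 1426642_at (95% interval -0.53 to 0.07). None of these p values passed, which leaves differences within the stated intervals possible.

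Against healthy ECs, metastasis B20 ECs had 9 of 19 probe sets called higher and none lower, where 5.41% of all probe sets were called, 3.32% higher and 2.09% lower. They belonged to Col1a1 (1.33 ± 0.15 and 2.21 ± 0.27), Col1a2 (1.24 ± 0.20 and 1.95 ± 0.26), Col3a1 (0.99 ± 0.15 and 1.14 ± 0.15), Col5a2 (0.86 ± 0.10 and 0.73 ± 0.08) and Fn1 (1.47 ± 0.15). The largest limma adjusted p among them was 0.0098, that of Col1a2 on 1450857_a_at. Col6a1 and Postn differed by 0.66 (limma adjusted p = 0.197) and 0.53 (limma adjusted p = 0.237), and without healthy array 3 by 0.97 (adjusted p = 0.0319) and 0.82 (adjusted p = 0.0213). Dcn stood at -0.08 on 1449368_at and Lum at 0.32 (limma adjusted p of 0.924 and 0.674). This comparison uses the same 3 healthy arrays as the first one, so its values are not a second measurement of the difference.

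The upstream sequences of 3 of these genes are shown because their genes parted in the data, Col1a2 and Col3a1 rising and Col5a1 not. RefSeq start sites were held for 5 of the 10 genes, in 6 windows of 250 bases that end at the base before the start (build GRCm38.p6). Capitals mark CCAAT, the TATA-box letters TATAAA and the GC-box letters GGGCGG on either strand, and all windows are written on the strand of the gene.
Col1a2, chr6:4505368-4505617, plus strand: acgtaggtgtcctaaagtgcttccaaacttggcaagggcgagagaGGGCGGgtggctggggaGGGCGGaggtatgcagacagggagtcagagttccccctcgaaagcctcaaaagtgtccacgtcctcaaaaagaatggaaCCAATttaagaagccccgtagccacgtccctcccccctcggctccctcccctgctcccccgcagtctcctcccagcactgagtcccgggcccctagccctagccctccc
Col3a1, chr1:45311288-45311537, plus strand: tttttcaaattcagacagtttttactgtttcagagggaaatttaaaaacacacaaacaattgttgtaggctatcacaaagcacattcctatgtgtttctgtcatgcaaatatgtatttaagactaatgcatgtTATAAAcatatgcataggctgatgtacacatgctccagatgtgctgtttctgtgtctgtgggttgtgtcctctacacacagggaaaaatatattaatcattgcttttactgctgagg
Col5a1, chr2:27886175-27886424, plus strand: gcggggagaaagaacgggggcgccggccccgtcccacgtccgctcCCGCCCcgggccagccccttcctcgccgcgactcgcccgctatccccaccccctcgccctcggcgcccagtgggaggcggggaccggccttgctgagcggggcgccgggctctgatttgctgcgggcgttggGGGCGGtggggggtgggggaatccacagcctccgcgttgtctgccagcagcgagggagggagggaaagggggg

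Col1a2 held 1 CCAAT and 2 GGGCGG, Col3a1 1 TATAAA and Col5a1 2 GGGCGG. The windows also differed in base composition, with 62.0% G and C in Col1a2, 35.2% in Col3a1 and 76.4% in Col5a1, against a median of 52.4% over all 32851 windows. Col6a1 and the first of 2 Postn windows held none of the 3 motifs, and the second Postn window held 1 TATAAA. Among all windows, 33.8% held CCAAT, 12.4% TATAAA and 32.7% GGGCGG, and the motifs searched do not overlap one another in the sequences shown. Such a match describes letters in this window only.

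Related matrix genes were read from lists of other collagens, proteoglycans, matricellular proteins, elastic fibers, collagen processing, matrix receptors and mesenchymal transition genes, with 1 probe set per gene. Of 97 such genes, 15 were higher and 4 lower in metastasis IgG than in healthy ECs (limma adjusted p under 0.05), where 9.01% of all 18193 genes were called, 5.55% higher and 3.46% lower. By the same count 5 of the 10 genes described here were higher and none lower. Of the related genes and markers named below, the probe sets of Tnc, Efemp1, Snai1, Fap, Wt1, Omd, Ecm2, P4ha3, Epcam and Itgam were dim, with means of 6.35 to 8.15. The count of 19 related genes depended on single arrays and fell to 12 without metastasis IgG array 1, 11 without metastasis IgG array 2, 11 without healthy array 1 and 12 without healthy array 2. Between metastasis B20 and metastasis IgG ECs limma called 0 of 97, with 10 at an unadjusted p under 0.05 (8.04% of all genes). Those of smallest p in their lists included the angiogenesis inhibitor Thbs1 at 0.50, the prolyl hydroxylase subunit P4ha3 at 0.48 and the proteoglycan Omd at -0.46, which did not pass (limma adjusted p of 0.433, 0.417 and 0.417).

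Of 11 other fibrillar and fibril-associated collagens, 1 was called in metastasis IgG over healthy ECs, and it was lower, with a median difference of 0.03. This was Col12a1, which coats collagen I fibrils, at 9.69, 8.91 and 9.27 log2 units in metastasis B20 ECs, 8.82, 8.84 and 9.55 in metastasis IgG ECs and 9.99, 9.86 and 10.14 in healthy ECs (-0.93, limma adjusted p = 0.021). Its call held in 1 of 6 fits without 1 array, and the other Col12a1 probe sets ran from -0.48 to 0.13. Of 4 other collagen VI chains, Col6a2 rose by 0.64 (limma adjusted p = 0.0142), a call that was lost without healthy array 1 or 2, and the other 3 did not pass.

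Matricellular proteins, which modulate adhesion rather than build fibers, held the largest differences among the related lists, with 4 of 15 higher, 1 lower and a median of 0.35. Tgfbi, an adhesion protein induced by TGF-beta, rose by 2.71, the large proteoglycan Vcan by 1.95 and the anti-adhesive Tnc by 1.19 (limma adjusted p of 0.000176, 0.000268 and 0.00683), and these calls held whichever single array was left out. Tnc had 8.23, 8.51 and 8.87 log2 units in metastasis B20 ECs, 8.90, 8.57 and 8.18 in metastasis IgG ECs and 7.07, 7.48 and 7.52 in healthy ECs, with no overlap between metastatic and healthy arrays. Other probe sets ran from 0.77 to 2.34 for Tgfbi and from -0.23 to 1.41 for Vcan, so that the size of these differences was not shared by all of them. Among 10 small leucine-rich proteoglycans only Fmod was called, lower by 0.43 in size (limma adjusted p = 0.0286), and among 11 elastic fiber genes Emilin1 was higher (0.56, limma adjusted p = 0.0113) and Efemp1 lower (-0.64, limma adjusted p = 0.0319). The Fmod and Efemp1 calls each held in 1 of 6 fits without 1 array.

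Of 21 genes that process and cross-link collagen, 4 were higher, none was lower, and the median was 0.19. Plod1, a lysyl hydroxylase, rose by 0.65 (limma adjusted p = 0.00318), Serpinh1, the collagen chaperone HSP47, by 0.44 (limma adjusted p = 0.00929) and P4ha1, a prolyl hydroxylase subunit, by 0.40 (limma adjusted p = 0.0265, held in 1 of 6 fits without 1 array). Serpinh1 had 11.44, 11.58 and 11.63 log2 units in metastasis B20 ECs, 11.60, 11.61 and 11.52 in metastasis IgG ECs and 11.15, 11.15 and 11.12 in healthy ECs, which did not overlap. Of 12 receptors of collagen and fibronectin, the integrin subunits Itgb3 (1.10, limma adjusted p = 0.00227) and Itga5 (0.52, limma adjusted p = 0.00746) rose. The other Itgb3 probe set gave 0.75, whereas those of Itga5 ran from -0.07 to 0.32 and the mean of its probe sets did not pass (0.22, limma adjusted p = 0.138). Other probe sets also gave smaller differences for Plod1 (0.19), Tnc (0.50) and Snai2 (0.06). Of 13 genes of epithelial or endothelial to mesenchymal transition 3 were called, namely Fap (0.49), Snai1 (0.43) and Snai2 (0.42), at limma adjusted p values of 0.0298, 0.0398 and 0.0221, and each of these calls was lost in at least 5 of 6 fits without 1 array.

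In metastasis B20 against healthy ECs, 15 of the 97 related genes were higher and 3 lower, where 6.44% of all genes were called, 4.15% higher and 2.29% lower. Tgfbi rose by 2.83, Vcan by 2.20 and Tnc by 1.18, and Serpinh1 by 0.41, of which only the Serpinh1 call depended on single arrays and held in 1 of 6 such fits. The proteoglycan gene Ogn was lower by 0.96 in size (limma adjusted p = 0.0383) and Ecm2 by 0.55 (limma adjusted p = 0.0408), both lost in 5 of 6 fits without 1 array. The total of 18 fell to 7 without metastasis B20 array 2 or healthy array 2, to 8 without metastasis B20 array 3 or healthy array 1, and to 9 without healthy array 3.

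**Figure D3:**
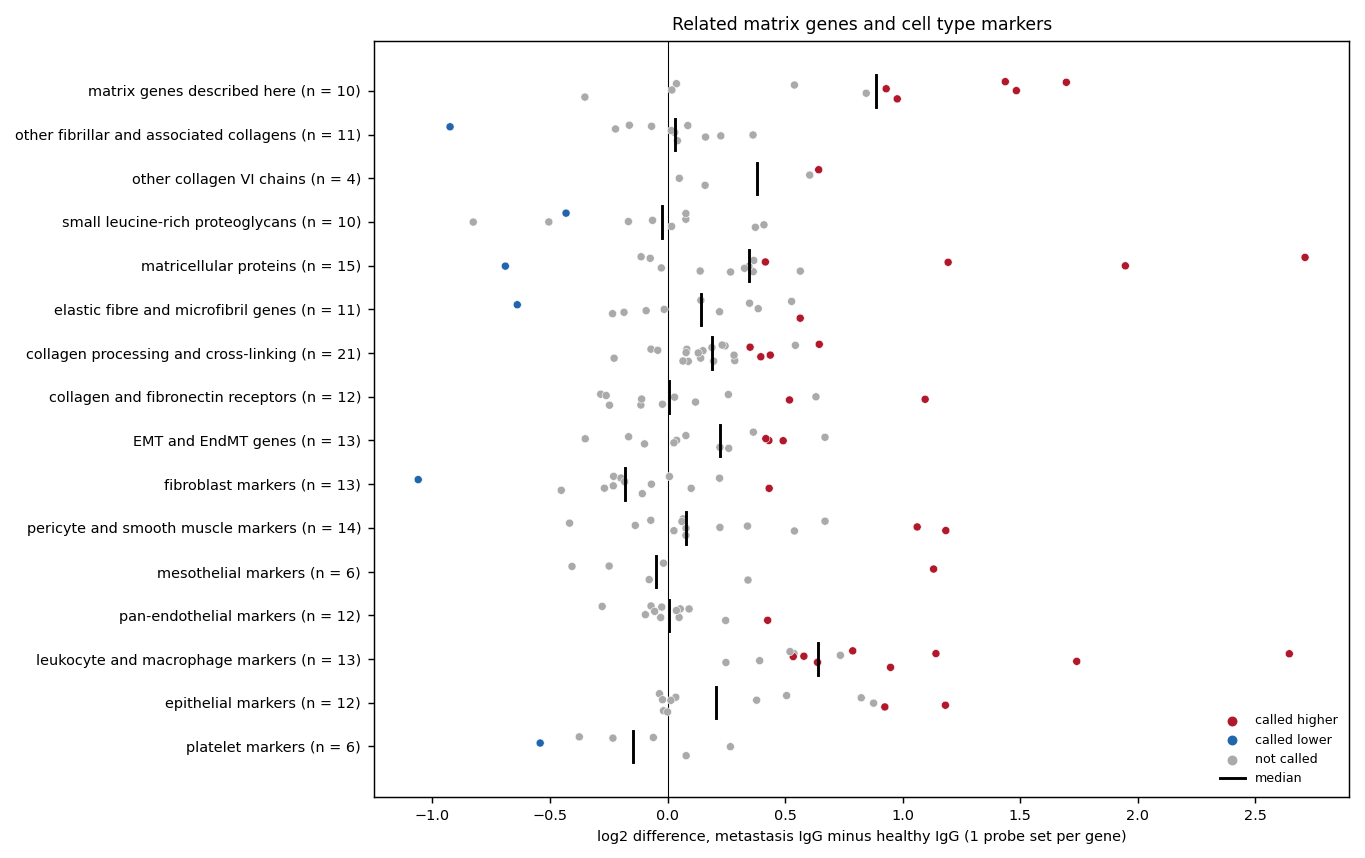
Log2 difference of metastasis IgG over healthy IgG ECs (x axis) for each gene of the 10 matrix genes, the related matrix lists and the cell type markers (y axis), with 1 point per gene and a black bar at the median. The 10 matrix genes have a median of 0.89, the fibroblast markers one of -0.18 and the leukocyte and macrophage markers one of 0.64.

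Since this matrix is made mainly by cells other than ECs, markers of those cells were read beside it. Of 13 fibroblast markers, 1 was higher in metastasis IgG than in healthy ECs, 1 was lower and 11 did not pass, with a median of -0.18. These markers were Pdgfra, Tcf21, Gpc3, Mfap4, Clec3b, Inmt, Pi16, Dpt, Scara5, Npnt, Fgf10, Meox2 and Cd34. Fap was read with the transition genes instead, and the median does not cover fibroblast genes outside this list. Inmt, an enzyme abundant in lung fibroblasts, fell by 1.06 (limma adjusted p = 0.0159), a call lost without healthy array 2, and Cd34, which capillary ECs also express, rose by 0.43 (limma adjusted p = 0.0121). Pdgfra, which encodes CD140a of the sort, had 9.25, 9.25 and 9.47 log2 units in metastasis B20 ECs, 9.65, 8.80 and 9.53 in metastasis IgG ECs and 9.01, 9.88 and 10.44 in healthy ECs, and overlapped throughout (-0.45, 95% interval -1.25 to 0.35, limma adjusted p = 0.5). The mean centered level of the fibroblast list lay between -0.125 and 0.020 in metastasis B20 ECs, between -0.198 and 0.103 in metastasis IgG ECs and between -0.145 and 0.368 in healthy ECs. That of all 10 matrix genes, called or not, lay between 0.183 and 0.340 in metastasis B20 ECs, between 0.162 and 0.395 in metastasis IgG ECs and between -0.913 and -0.130 in healthy ECs. In both lists healthy array 1 was the lowest and healthy array 3 the highest of the healthy group. This order was not particular to them. It also held for the lists of pericyte and smooth muscle, leukocyte and macrophage, and epithelial markers. It did not hold for the lists of mesothelial, platelet and pan-endothelial markers. The part of fibroblasts in the differences was not tested.

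Pericyte and smooth muscle markers held 2 genes called higher of 14 and none lower, with a median of 0.08, and the list included Postn. Pdgfrb, which encodes CD140b of the sort, had 8.88, 8.995 and 9.21 log2 units in metastasis B20 ECs, 9.35, 8.85 and 8.99 in metastasis IgG ECs and 7.34, 7.97 and 8.33 in healthy ECs. The Pdgfrb difference of metastasis IgG over healthy ECs was 1.18 ± 0.24 (limma adjusted p = 0.0191), with 0.32 on its other probe set, and the call was lost without metastasis IgG array 1 (adjusted p = 0.0667) or healthy array 2 (adjusted p = 0.0585). Rgs5, a pericyte gene, rose by 1.06 (limma adjusted p = 0.0172), again not without healthy array 2. The level of this list ran from 0.0068 to 0.161 in metastasis B20 ECs, from 0.022 to 0.218 in metastasis IgG ECs and from -0.392 to 0.014 in healthy ECs. The part of mural cells in the collagen differences was not tested.

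Leukocyte and macrophage markers rose with the collagens, with 8 of 13 higher, none lower and a median of 0.64. C1qa, a macrophage complement gene, rose by 2.64, its partner C1qb by 1.74 and the lysozyme gene Lyz2 by 1.14 (limma adjusted p of 5.05e-05, 0.00137 and 0.00552). Ptprc, which encodes CD45, stood at 0.52 and did not pass with all arrays (limma adjusted p = 0.187). All its metastasis IgG arrays lay above the healthy ones, and it passed without healthy array 3 (0.76, limma adjusted p = 0.0412). The same omission gave 0.87 for Ptprc in metastasis B20 over healthy ECs (limma adjusted p = 0.0341). The other Ptprc probe set gave -0.077 in metastasis IgG and -0.019 in metastasis B20 over healthy ECs. Itgam, which encodes CD11b, stood at 0.25 (limma adjusted p = 0.392). The level of the list lay between 0.183 and 0.606 in metastasis B20 ECs, between 0.150 and 0.408 in metastasis IgG ECs and between -0.824 and -0.411 in healthy ECs, without overlap between metastatic and healthy arrays. Of 12 epithelial markers the surfactant genes Sftpd (1.18, limma adjusted p = 0.0301) and Sftpb (0.92, limma adjusted p = 0.0262) were higher, calls that each held in 1 of 6 fits without 1 array, and Epcam, which encodes CD326, stood at 0.04. Of 6 mesothelial markers Wt1 was higher (1.13, limma adjusted p = 0.0123), whereas 4 differences were below 0 and the median was -0.05. Of 6 platelet markers Ppbp was lower (-0.54, limma adjusted p = 0.00876), with a median of -0.15. The part of these cells in the collagen differences was not tested. Of 12 pan-endothelial markers, 1 was higher in metastasis IgG ECs, namely Emcn (0.43, limma adjusted p = 0.0393, held in 1 of 6 fits without 1 array), and the median was 0.01. In metastasis B20 over healthy ECs, Emcn was again called higher (0.50, limma adjusted p = 0.0167). There Eng was called lower (-0.38, limma adjusted p = 0.0348), a call that held in 1 of 6 fits without 1 array. The levels of the pan-endothelial list lay between -0.001 and 0.018 in metastasis B20 ECs, between -0.018 and 0.040 in metastasis IgG ECs and between -0.049 and -0.003 in healthy ECs.

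**Figure D4:**
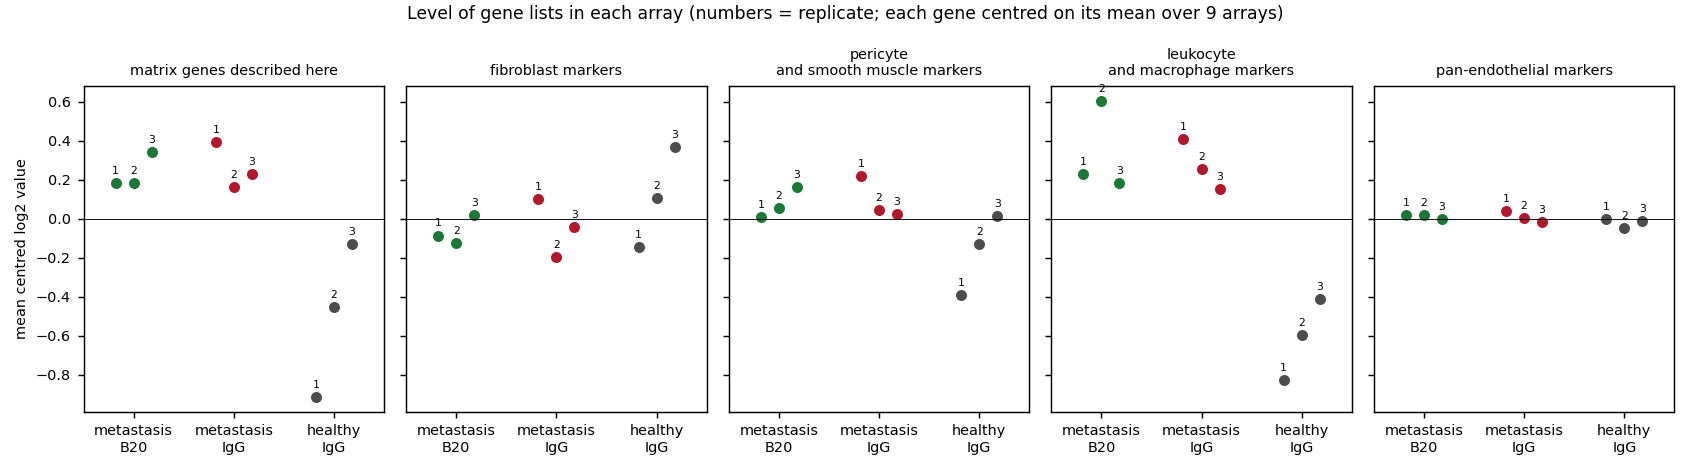
Mean centered log2 value (y axis) of 5 gene lists in each array of metastasis B20, metastasis IgG and healthy IgG ECs (x axis), with 1 numbered point per array and each gene centered on its mean over 9 arrays. The 3 healthy arrays lie between -0.913 and -0.130 for all 10 matrix genes and between -0.145 and 0.368 for the fibroblast markers.

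Across the 9 arrays, the genes closest to Col1a1 were found by the root mean square distance of their centered log2 values, as a description over 9 arrays that share 3 groups. Lgals1, the matrix-binding galectin-1, was nearest at 0.102, followed by Col1a2 at 0.109, the signaling regulator Rgs1 at 0.159, the guidance factor Sema3a at 0.160 and Ccdc184 at 0.175. Fn1 ranked 9th among all other genes, Col3a1 18th and Col5a2 79th. Col6a1 ranked 244th and Postn 480th, while Col5a1, Lum and Dcn ranked 5227th, 7071st and 16707th, so that the 10 genes did not all lie close to Col1a1. This distance depends on the size of a difference as well as on its course over the arrays. A distant rank alone therefore does not show another pattern.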

How the data were processed

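RNA of sorted lung ECs was extracted with a kit for small samples, labeled with biotin by a 3' in vitro transcription kit and hybridized to Affymetrix GeneChip mouse genome arrays, 1 array per sample. The values deposited by the authors are log2 intensities from robust multiarray averaging (RMA), which they ran in Chipster, and were used without change for 45101 probe sets in 9 arrays. RMA gives no detection call, so dim probe sets, with a mean below the median of 8.30, were kept. The deposited values take 4773 to 5854 distinct levels per array, with a median step of 0.0022 at the values of these genes. The number of arrays limits the precision.

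Probe sets were named through the platform annotation held for this series, which can be old. Of the 45101, 9211 had no gene name, 932 named several genes and 64 were controls, and the 34945 left were tested. Members and gene lists were chosen with earlier results of these data known. For each comparison, limma 3.58.1 (R 4.3.3) was run on the 6 arrays concerned by lmFit with eBayes, without a block, after the 2-group empirical Bayes test of the methods. Calls were made at an adjusted p under 0.05 (Benjamini-Hochberg) over all probe sets, or, for the lists, over 18193 genes with the probe set of highest mean for each gene. Differences are the first named group minus the second, ± SE, with 95% intervals before adjustment. Separate mice are taken from the label "biological" and from the study, which counts the replicates of these groups as mice. Each p value sets a mean difference against the spread between these arrays, as moderated by eBayes.

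Named genes were all 10 members with every probe set, up to 3 called genes of largest difference per list and comparison, the genes of the sort, and the 5 genes nearest to Col1a1. The ranks of the other members are given beside those 5. Of the lists, Mfap4, Acta2, Tagln, Cnn1, Krt19 and Postn lie in more than 1. Alternatives were all 9 arrays in 1 fit, the replicate number as a block, a second quantile normalization, median centering, a filter on dim probe sets, trend and robust eBayes, array weights, all probe sets in the test, averaging the probe sets of each gene, leaving out those with a suffix for shared sequence, the thresholds of the methods (log2 change over 0.75, adjusted p under 0.25) and each array left out in turn. Same-numbered arrays of different groups did not deviate together, with correlations of -0.0739 to 0.0371 over 9 pairs, so the numbers were not taken as pairs. Scripts were tested on simulated data. Figures were drawn with Python 3.11.15, pandas 2.3.3 and matplotlib 3.10.9.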

Additional observations from a re-analysis of the deposited data

How the results depend on the processing

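The 9 probe sets of Col1a1, Col1a2, Col3a1, Col5a2 and Fn1 called in metastasis IgG over healthy ECs kept their call under all 15 alternatives, and in metastasis B20 over healthy ECs 1 was lost, Col5a2 on 1450625_at, whose 0.73 is under the log2 threshold of 0.75 in the methods. The count of called probe sets was 9 to 11 without single arrays in either comparison (10 and 9 with all), and 0 between metastasis B20 and metastasis IgG ECs. The call of Col5a1 on 1416741_at was lost in 10 of 15, Postn passed only without healthy array 3, and Col6a1 without that array or under the thresholds of the methods. Related matrix genes numbered 19 and 18 with all arrays, 6 and 6 under the thresholds of the methods, and 11 to 16 and 7 to 14 without single arrays. Over all probe sets, 2591 calls in metastasis IgG over healthy ECs became 1764 with the replicate number as a block, 857 under the thresholds of the methods and 1326 to 2231 without single arrays. In metastasis B20 over healthy ECs 1891 became 1319, 691 and 928 to 1752, and 2966 with trend and robust eBayes. With the replicate block, 9 member probe sets were called in both comparisons with healthy ECs, and related genes numbered 14 and 15. The block ended 7 of 38 named calls in metastasis IgG over healthy ECs (Col5a1 on 1416741_at, Efemp1, Fap, Fmod, P4ha1, Pdgfrb and Snai2) and 5 of 33 in metastasis B20 over healthy ECs (Eng, Plod1, S100a4, Serpinh1 and Snai2). Of 342 values of the 19 probe sets without single arrays, 6 lost and 4 gained a call, and of 510 values of the other named genes 117 lost and 5 gained one. Lum without healthy array 1 also passed, but its sign turned and it is not counted among the 4. Under the remaining alternatives 5 of 501 and 50 of 799 values lost a call, and 1 and 8 gained one.

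Signs turned only for differences that had not passed, apart from Lum, which passed once turned. In metastasis B20 over metastasis IgG ECs, Col5a1 on 1434479_at was 0.0002 after median centering, and array weights gave Col3a1 -0.0103 and -0.0150, Col5a1 on 1416740_at -0.0223 and Fn1 on 1437218_at -0.0295. There the mean of probe sets gave Acta2 0.0296 and Epcam 0.0243, and probe sets without a shared suffix gave Acta2 0.45 and Col14a1 0.17. In metastasis IgG over healthy ECs the mean of probe sets gave Epcam -0.0509 and the suffix rule Ptprc -0.0770, and in metastasis B20 over healthy ECs Ptprc -0.0191. Without single arrays, differences of metastasis IgG over healthy ECs ran from -0.0567 to 0.11 for Col5a1 on 1434479_at, from -0.46 to 0.27 for Lum and from -0.0722 to 0.13 for Epcam. Those of metastasis B20 over metastasis IgG ECs ran from -0.21 to 0.0511 for Col1a2 on 1423110_at, from -0.0744 to 0.0801 and -0.14 to 0.12 for Col3a1, from -0.0341 to 0.0697 and -0.0766 to 0.0765 for Col5a1 on 1416740_at and 1434479_at, from -0.12 to 0.0022 for Col5a2 on 1422437_at, from -0.10 to 0.12 for Fn1 on 1437218_at, from -0.12 to 0.0803 for Postn, from -0.11 to 0.0203 for Dcn on 1441506_at, from -0.17 to 0.0307 for Epcam, from -0.10 to 0.24 for Itgam, from -0.27 to 0.16 for Pdgfra and from -0.14 to 0.11 for Pdgfrb. Those of metastasis B20 over healthy ECs ran from -0.0630 to 0.0263 and -0.0569 to 0.11 for Col5a1 on 1416741_at and 1434479_at, from -0.45 to 0.18 for Dcn on 1449368_at, from -0.16 to 0.57 for Lum and from -0.0019 to 0.0752 for Pecam1. The cause of these turns was not tested. The 3 arrays per group limit the precision, and without detection calls a dim probe set cannot be read as present or absent.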
